A study of Mus musculus with 2 samples.

Results

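The Iroquois homeobox genes of the mouse, Irx1 to Irx6, were followed in RNA-seq of the embryonic central nervous system. They were chosen by gene symbol and are 6 of the 43346 genes in the deposited mm10 tables. The tissue was central nervous system of C57BL/6J mice at embryonic day 14, taken as a single group with 2 biological replicates, numbered 1 and 2. Each replicate pooled male and female littermates, and both carry the same donor identifier, so the spread between them is that of 2 pools. Libraries were stranded and paired-end, with reads of 101 nt, from poly(A)+ RNA above 200 nt with ribosomal RNA removed, with ERCC spike-in RNAs. No other genotype, treatment or age was part of the series, so the comparisons are among the 6 genes, between their 2 genomic clusters and between the 2 replicates.

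Iroquois genes encode homeodomain transcription factors of the TALE class, which have an extended loop between the first helices of the homeodomain. In mammals they lie in 2 clusters of 3 genes that arose by duplication, and the paralogues are paired as Irx1 with Irx3, Irx2 with Irx5 and Irx4 with Irx6. In the neural tube they act with other homeodomain factors to divide progenitors into domains. Irx3 and Olig2 repress each other at the border of the motor neuron domain, and Irx3 and Six3 repress each other in the forebrain. Outside the nervous system, Irx4 is known for its role in the ventricles of the heart, and Irx5 and Irx6 for roles in bipolar cells of the retina.

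On mm10, Irx1, Irx2 and Irx4 stand on chromosome 13, at chr13:71957921-71963723 (minus strand), chr13:72628820-72634198 (plus) and chr13:73260479-73269608 (plus), over a span of 1311.7 kb. Irx3, Irx5 and Irx6 stand on chromosome 8, at chr8:91798525-91802067 (minus), chr8:92357625-92376286 (plus) and chr8:92674288-92680956 (plus), over 882.4 kb. Neighbouring Irx genes are 298.0 to 665.1 kb apart. The homeobox, which encodes the part of the protein that binds DNA, is what the 6 genes share and what a short read could confuse. A window over it is shown for each gene. Each window holds the 63 codons, or 189 bases, most alike in all 6 genes. It was chosen by likeness, so its ends need not be the borders of the homeobox. Sequences are from the GENCODE M21 coding sequence of the transcript with the largest share of the gene's TPM, 5′ to 3′. Bases identical in all 6 are in capitals. Each window lies within a single exon.
Irx1 (chr13:71959983-71960171): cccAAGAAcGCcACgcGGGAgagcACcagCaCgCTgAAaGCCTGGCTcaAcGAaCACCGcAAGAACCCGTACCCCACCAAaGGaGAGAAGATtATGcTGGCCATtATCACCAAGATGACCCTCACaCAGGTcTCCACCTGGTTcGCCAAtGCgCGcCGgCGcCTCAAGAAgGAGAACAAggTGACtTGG
Irx2 (chr13:72630673-72630861): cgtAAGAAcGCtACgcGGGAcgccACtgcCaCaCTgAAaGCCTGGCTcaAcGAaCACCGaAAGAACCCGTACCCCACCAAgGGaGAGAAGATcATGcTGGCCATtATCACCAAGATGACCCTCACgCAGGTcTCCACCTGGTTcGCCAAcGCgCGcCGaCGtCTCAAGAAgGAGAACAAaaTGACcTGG
Irx4 (chr13:73267532-73267720): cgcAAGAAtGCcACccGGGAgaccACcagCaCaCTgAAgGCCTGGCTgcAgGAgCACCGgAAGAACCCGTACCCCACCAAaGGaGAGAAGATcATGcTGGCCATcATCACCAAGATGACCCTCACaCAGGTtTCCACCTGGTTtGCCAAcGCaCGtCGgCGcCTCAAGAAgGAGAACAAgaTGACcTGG
Irx3 (chr8:91800487-91800675): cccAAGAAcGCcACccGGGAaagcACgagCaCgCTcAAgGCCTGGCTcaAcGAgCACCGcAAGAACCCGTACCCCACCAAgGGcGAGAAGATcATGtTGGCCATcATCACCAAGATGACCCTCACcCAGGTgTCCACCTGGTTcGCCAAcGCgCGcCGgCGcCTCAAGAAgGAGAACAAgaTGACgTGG
Irx5 (chr8:92359636-92359824): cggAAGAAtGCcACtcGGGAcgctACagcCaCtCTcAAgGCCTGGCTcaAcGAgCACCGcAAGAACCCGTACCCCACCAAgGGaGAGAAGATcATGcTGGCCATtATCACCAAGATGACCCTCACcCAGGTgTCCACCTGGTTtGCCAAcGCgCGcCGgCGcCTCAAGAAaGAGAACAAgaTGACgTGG
Irx6 (chr8:92677245-92677433): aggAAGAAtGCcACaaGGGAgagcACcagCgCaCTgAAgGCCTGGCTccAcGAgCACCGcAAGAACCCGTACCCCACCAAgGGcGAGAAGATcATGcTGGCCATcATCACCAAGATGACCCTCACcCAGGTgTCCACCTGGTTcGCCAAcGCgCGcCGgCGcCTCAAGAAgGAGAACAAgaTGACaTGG
Of the 189 bases, 149 (78.8%) were identical in all 6 genes, and 56 of the 63 codons encoded the same residue. Irx2 and Irx5 encoded the same residue at 63 of 63 codons while 170 of their 189 bases were identical. Over the whole coding sequence, the 3 paralogue pairs had 56.9% to 60.5% identical positions in a global alignment, and the other 12 pairs had 51.4% to 56.7%. In this window alone the order differed, and Irx3 with Irx6, which share a cluster, had the most identical bases (175, or 92.6%). The longest run of bases shared by any pair of coding sequences was 88 nt, between Irx3 and Irx6, and the next was 65 nt, between Irx2 and Irx5. Both runs are shorter than a read.

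The replicates differed in marker genes of other tissues and of brain regions, and these values stand beside each Irx comparison between them. The 4 general neural markers were detected in both, with a summed level of 2059 TPM (a level per length, scaled to the total of each library) in replicate 1 and 2418 TPM in replicate 2. Markers of skeletal muscle summed to 390 and 7.85 TPM in replicates 1 and 2, cartilage to 728 and 87.8 TPM, skin epithelium to 140 and 20.6 TPM, and mesenchyme and meninges to 1066 and 404 TPM, with 6 genes in each list. Telencephalon markers summed to 490 and 942 TPM over 8 genes, and 5 of 6 spinal cord Hox genes were at least 2-fold higher in replicate 2, where Hoxc8 had 721 counts against 2. Genes received 99528934 and 134760822 expected counts. In bulk tissue, fewer cells of a type and less RNA per cell cannot be told apart.

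All 6 Irx genes were detected, taken as at least 1 TPM in both replicates, as were 63.4% of 21474 protein-coding genes. They fell into 4 genes of moderate level and 2 of low level. Irx2 was the highest, with 63.3 TPM in replicate 1 and 37.9 TPM in replicate 2 (50.6 ± 18.0 TPM, SD, n = 2), above 83.8% of protein-coding genes by mean TPM. Irx1 had 43.3 and 28.2 TPM (35.8 ± 10.7 TPM, SD, n = 2). Irx3 had 29.3 and 18.0 TPM (23.6 ± 8.00 TPM, SD, n = 2).

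Irx5 had 19.8 TPM in replicate 1 and 11.1 TPM in replicate 2 (15.5 ± 6.14 TPM, SD, n = 2), above 62.5% of protein-coding genes. Irx6 was at 2.24 and 2.07 TPM (2.16 ± 0.12 TPM, SD, n = 2), from 434 and 534 expected counts. Irx4 was at 2.77 and 1.06 TPM (1.92 ± 1.21 TPM, SD, n = 2), from 398 and 202 expected counts. Irx4 and Irx6 lay above 39.0% and 39.8% of protein-coding genes. These 2 genes, at the far ends of their clusters from Irx1 and Irx3, were thus a paralogue pair in which both members were low.

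The order Irx2, Irx1, Irx3, Irx5 held within each replicate, with steps of 0.55, 0.56 and 0.56 on the log2 scale of TPM in replicate 1 and of 0.42, 0.65 and 0.69 in replicate 2. The ranges of neighbours in this order overlapped over both replicates, since, for one, Irx2 in replicate 2 (37.9 TPM) lay below Irx1 in replicate 1 (43.3 TPM). The next step down, from Irx5 to Irx6, was 3.15 and 2.43 on the log2 scale, and their ranges did not overlap. Irx6 and Irx4 changed places: Irx4 was the higher in replicate 1 and Irx6 in replicate 2, so their order is not larger than the spread between replicates. The exact 95% Poisson intervals, which cover counting error only, ran from 2.51 to 3.06 TPM for Irx4 and from 2.03 to 2.46 TPM for Irx6 in replicate 1, and from 0.919 to 1.22 TPM and 1.90 to 2.25 TPM in replicate 2.

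**Figure D1:**
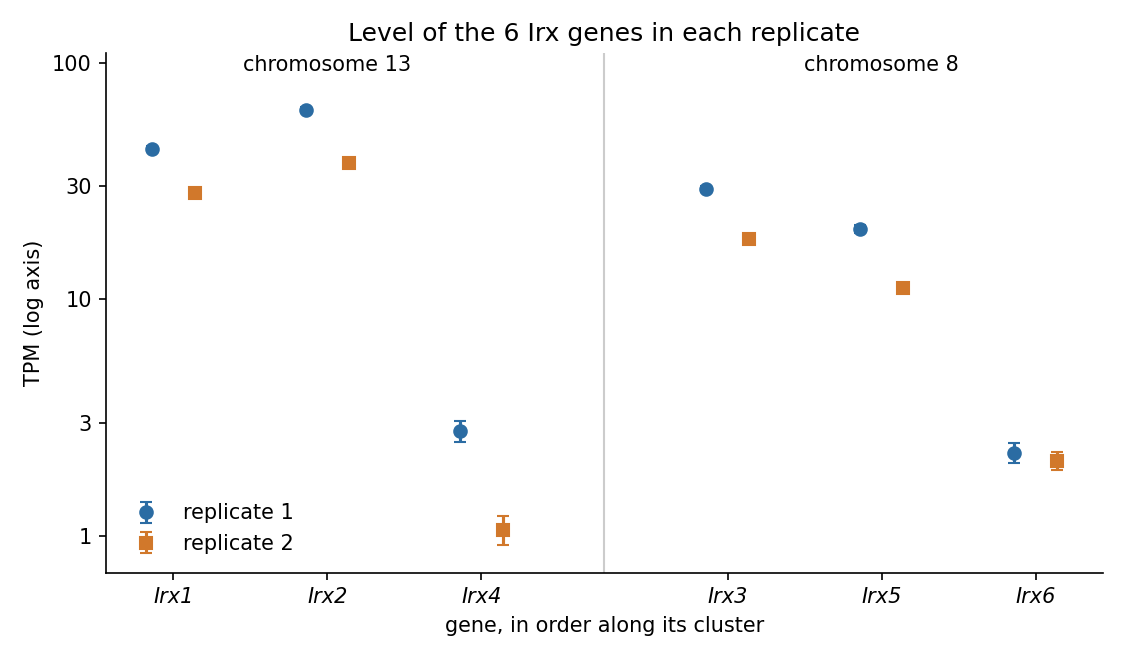
Level of each Irx gene in TPM (log axis) in replicate 1 (circles) and replicate 2 (squares), by cluster; bars are exact 95% Poisson intervals of the expected counts, hidden by the symbol where narrow. Irx1, Irx2, Irx3 and Irx5 lie between 11.1 and 63.3 TPM, Irx4 and Irx6 between 1.06 and 2.77 TPM, and replicate 1 is above replicate 2 for each gene.

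Among the TALE homeobox genes the Irx genes spread from the upper ranks to the lowest. Of 18 such genes, the 12 others being Meis, Pbx, Pknox, Tgif and Mkx genes, Irx2 ranked 6th by mean TPM, Irx1 8th, Irx3 13th, Irx5 15th, Irx6 17th and Irx4 18th. The most abundant was Meis2, a cofactor of Hox and Pax proteins, at 172.7 and 173.0 TPM, followed by Meis3 at 158 and 169 TPM and Pbx3 at 129 and 112 TPM. Mkx, a regulator of tendon cells, was the lowest of the 12, at 3.01 and 1.72 TPM, and lay above Irx6 and Irx4 by mean.

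The cluster on chromosome 13 had the higher summed level. Irx1, Irx2 and Irx4 together reached 109.3 TPM in replicate 1 and 67.2 TPM in replicate 2, and Irx3, Irx5 and Irx6 together reached 51.3 and 31.2 TPM. The log2 ratio of chromosome 8 over chromosome 13 was -1.09 in replicate 1 and -1.11 in replicate 2. The chromosome 13 sum was 2.14 ± 0.018 times that of chromosome 8 (SD, n = 2). That SD covers the 2 replicates only, and not the split of Irx2 TPM among its transcripts, given below. Both sums were lower in replicate 2, by a log2 ratio of -0.70 for chromosome 13 and -0.72 for chromosome 8, and chromosome 13 held 68.1% and 68.3% of the family's TPM in replicates 1 and 2.

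Within each cluster the low gene added little. Irx2 made up 57.9% and 56.4% of the TPM of its cluster in replicates 1 and 2, Irx1 39.6% and 42.0%, and Irx4 2.53% and 1.58%. On chromosome 8, Irx3 made up 57.0% and 57.7%, Irx5 38.6% and 35.7%, and Irx6 4.36% and 6.64%. The leading gene was the plus-strand middle gene Irx2 on chromosome 13 and the minus-strand first gene Irx3 on chromosome 8, which are not paralogues of each other. That lead of Irx2 counts its short transcripts. Its longest transcript, Irx2-201, had 39.5 and 23.5 TPM, against 43.3 and 28.2 TPM for Irx1.

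Paralogue pairs differed in how far apart their members were. Irx3 was below Irx1, with a log2 TPM ratio of -0.56 in replicate 1 and -0.65 in replicate 2 (mean -0.61 ± 0.06, SD, n = 2). Irx5 was further below Irx2, with -1.68 and -1.77 (mean -1.72 ± 0.06, SD, n = 2), a fold of 3.30 ± 0.15 in favour of Irx2. This fold also counts the short Irx2 transcripts. Irx2-201 alone had 39.5 and 23.5 TPM, against 19.8 and 11.1 TPM for Irx5. Irx6 over Irx4 was -0.31 in replicate 1 and 0.97 in replicate 2 (mean 0.33 ± 0.90, SD, n = 2), so that pair had no direction that both replicates shared. With 2 values no exact test can reach 0.05, and none was run.

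**Figure D2:**
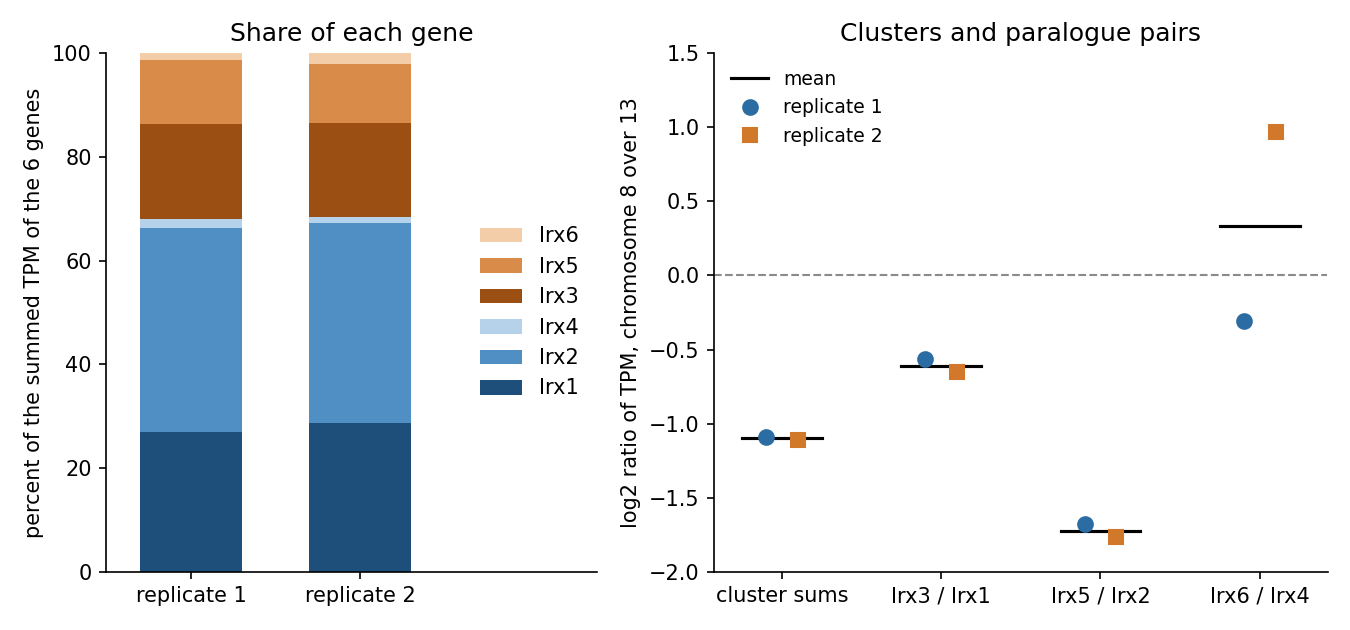
Left, percent of the summed TPM of the 6 Irx genes in each gene, by replicate, with chromosome 13 genes in blue and chromosome 8 genes in brown; right, log2 TPM ratio of chromosome 8 over chromosome 13 for the cluster sums and each paralogue pair, with the replicates as points and their mean as a line. Cluster sums, Irx3 over Irx1 and Irx5 over Irx2 lie below 0 in both replicates, and Irx6 over Irx4 lies on both sides of 0.

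An earlier quantification of the series on mm9 used Ensembl release 65 genes. Both of its value fields gave the 6 genes in the order of the mm10 mean TPM. They put Irx6 above Irx4, as mm10 replicate 2 did and mm10 replicate 1 did not. Mean RPKM, a level scaled by length and by depth, was 8.80 for Irx2, 5.28 for Irx1, 3.12 for Irx3, 1.91 for Irx5, 0.324 for Irx6 and 0.228 for Irx4. The cluster ratio was -1.50 in field 1 and -1.37 in field 2 on the log2 scale, further from 0 than on mm10. No label ties these fields to replicate 1 or 2, and they come from the same tissue, so they are not independent evidence of the order.

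Between replicates, all 6 Irx genes were lower in replicate 2. Their log2 ratios of replicate 2 over replicate 1 (expected counts, scaled by the TMM method) were below 0 in 6 of 6 genes, against 49.2% of 19513 genes whose expected counts averaged 10 or more. The median was -0.72 for the Irx genes and 0.00 over those 19513 genes. One library is compared with one library here, so there is no p-value. The value for Irx2 was -0.74 (exact 95% interval of counting error -0.80 to -0.69), for Irx1 -0.61 (-0.67 to -0.56) and for Irx3 -0.70 (-0.77 to -0.64).

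Irx5 had a log2 ratio of -0.83 (-0.91 to -0.75), so the 4 moderate genes lay within a narrow band. Irx4 stood below them at -1.39 (-1.64 to -1.15), and Irx6 stood above them at -0.12 (-0.30 to 0.07), an interval that includes 0. Irx4 was the only member at least 2-fold lower in replicate 2 (1 of 6, against 7.22% of genes), and no member was at least 2-fold higher (0 of 6, against 1.14%). A single call is not a result about the family. The intervals of Irx4 and Irx6 did not overlap each other or those of the other 4 genes, in terms of counting error only.

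The related lists moved less as a whole. The 12 other TALE genes had a median log2 ratio of 0.03, with 5 below 0, and Mkx alone was at least 2-fold lower, at -1.22. Of 26 genes that pattern the neural tube beside Irx genes, 24 were detected, 12 were below 0, and the median was 0.04. Gli1, a target and effector of Sonic hedgehog signalling, was at least 2-fold lower in replicate 2, at 18.4 and 7.51 TPM (log2 ratio -1.29).

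Fezf2 and Fezf1, forebrain factors, were at least 2-fold higher in replicate 2, Fezf2 at 26.1 and 58.8 TPM (1.17) and Fezf1 at 4.16 and 8.59 TPM (1.05). Among the most abundant partners were Tcf7l2 at 106 and 122 TPM and Pax6 at 41.2 and 59.3 TPM, which are also expressed in the forebrain, and Dbx2 was the lowest at 0.46 and 0.53 TPM. By distance of log2(TPM + 1) over the 2 libraries, the partners nearest to Irx1 were Otx2, at 38.1 and 34.9 TPM, and Pax6. Those nearest to Irx3 were Ptch1, the hedgehog receptor, at 21.3 and 18.2 TPM, and En2 at 20.5 and 14.5 TPM. Likeness over 2 libraries is only a likeness of level.

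Marker lists of brain regions and of other tissues bracketed the Irx ratios. The 6 hindbrain markers were all below 0 (median -0.85), with sums of 49.8 and 29.1 TPM, of which Hoxb1 was near 0 at 0.08 and 0.05 TPM. Midbrain markers were below 0 in 5 of 6 (median -0.50), with sums of 101 and 82.2 TPM. Thalamus and pretectum markers were near 0 (median 0.19, sums 187 and 206 TPM), and telencephalon markers were above 0 in all 8 (median 0.98).

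Lists outside the brain were mostly further from 0 than the Irx genes. The medians were -6.10 for skeletal muscle, -4.40 for cartilage, -3.26 for skin epithelium, -1.44 for mesenchyme and meninges, and -1.71 for peripheral ganglia and Schwann cells (sums 185 and 96.8 TPM). Inner ear markers summed to 67.9 and 5.51 TPM, of which the otoconial gene Oc90 gave 55.9 and 0.31 TPM. Heart markers, which bear on Irx4, summed to 29.7 and 2.91 TPM. Of these the chamber gene Myl7 had 3 and 2 counts, Myh6 had 0.14 and 0.10 TPM, and Nppa had 0.54 and 0.95 TPM. The ventricular genes Myh7, at 5.26 and 0.84 TPM (log2 ratio -2.58), and Myl2, at 3.49 and 0.47 TPM (-3.35), were lower in replicate 2, as Irx4 was, and so was Tnnt2, at 20.1 and 0.49 TPM. Skeletal muscle can also express these 3 genes.

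Retinal markers, which bear on Irx5 and Irx6, summed to 27.0 and 40.8 TPM and had a median log2 ratio of -0.06. Rlbp1, which glia of the brain can also express, made up most of that sum at 19.6 and 34.1 TPM, and the photoreceptor and bipolar cell genes Crx and Vsx1 were at 0.14 TPM or less in both replicates. The part of any of these tissues or regions in the Irx levels was not tested.

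**Figure D3:**
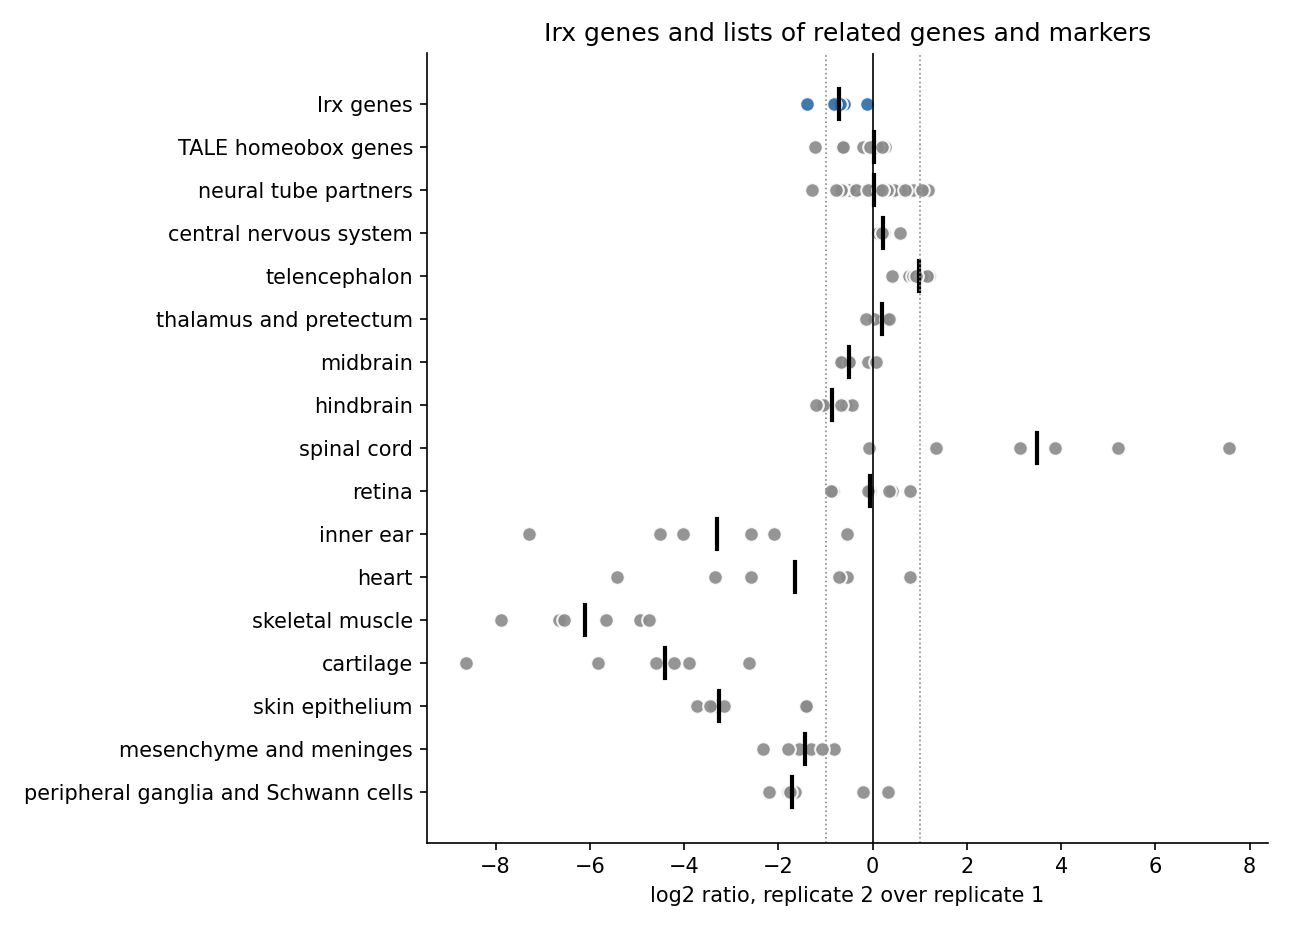
Log2 ratio of replicate 2 over replicate 1 (TMM-scaled expected counts) for the 6 Irx genes and each gene of the related and marker lists; black bars are list medians and dotted lines mark a 2-fold difference. The Irx genes lie between -1.39 and -0.12, a range that overlaps those of the hindbrain, midbrain, mesenchyme and peripheral ganglia markers, among others; muscle and cartilage markers lie further below 0 and telencephalon and most spinal cord markers lie above 0.

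Next to an Irx gene, 3 RNAs start on the other strand. Each had a log2 ratio below 0, as did 49.2% of genes whose expected counts averaged 10 or more. Gm20554 had 122 and 101 expected counts in replicates 1 and 2, Crnde 1223 and 958, and Irx3os 349 and 336. No counting interval was computed for these RNAs, and whether their ratios differ from those of the Irx genes was not tested. Gm20554, a long noncoding RNA whose start is 0.26 kb from that of Irx2, was at 3.0 and 1.84 TPM, with a log2 ratio of -0.68 beside -0.74 for Irx2. Crnde, a long noncoding RNA that starts 1.5 kb from Irx5, was at 30.1 and 18.1 TPM, with -0.77 beside -0.83 for Irx5. Irx3os, which starts 1.65 kb from Irx3 and overlaps it, was at 2.64 and 2.07 TPM, with -0.47 beside -0.70 for Irx3. Whether the authors' counting used strand is not given in the sources used here, so reads of Irx3 and Irx3os cannot be told apart.

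On mm10, Crnde was higher per length than Irx5 in both replicates (30.1 against 19.8 TPM and 18.1 against 11.1 TPM). On mm9 the order was the reverse, with Crnde at 0.734 and 1.15 RPKM and Irx5 at 1.36 and 2.47 RPKM in the 2 fields, so which of them is the higher depends on the quantification. Irx3os, at 0.287 and 0.264 RPKM, differed between the mm9 fields by a log2 ratio of -0.12, the opposite sign to Irx3 at 0.75. On mm10, Gm20554 and Irx3os were far below Irx2 and Irx3.

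Genes farther out were mixed. The detected coding genes around the chromosome 13 cluster all lie beyond Irx4, 68.03 to 472.62 kb from its start. They did not share the ratio of the moderate Irx genes. No other coding gene was measured inside that cluster or on its Irx1 side, so no coding neighbour of Irx1 or Irx2 could be compared. Within 500 kb on each side of a cluster and inside it, 13 other genes were measured around chromosome 13, 10 of them detected. Around the chromosome 8 cluster 19 were measured and 7 were detected. Of those whose expected counts averaged 10 or more, 5 of 11 around chromosome 13 were below 0. Around chromosome 8 it was 8 of 11, against 49.2% of all such genes. At least 2-fold lower were 2 and 3 of them (7.22% of genes), and 1 around each cluster was at least 2-fold higher (1.14%). These counts are small and were not tested. Around chromosome 13, the log2 ratios of the 7 detected protein-coding genes lay between -0.21 (Slc6a3, the dopamine transporter) and 0.20 (Slc12a7), with Lpcat1, Mrpl36, Ndufs6, Tert and Clptm1l in between. Ndufs6, a subunit of respiratory complex I 68.06 kb from the Irx4 start, was at 180 and 185 TPM (0.07), beside -1.39 for Irx4. The detected pseudogenes Rpl9-ps4, at -1.01, and Gm10263, at 1.44, rest on 57 to 87 and 20 to 74 counts and may share reads with their parent genes.

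On chromosome 8, Fto, whose introns hold elements known to contact Irx3, was at 89.7 and 85.2 TPM (-0.08), and Rpgrip1l, a cilium gene, was at 4.83 and 5.30 TPM (0.15). On the far side, Lpcat2 had -0.33. Mmp2, a matrix protease of mesenchymal cells 153.0 kb from the Irx6 start, had 76.6 and 24.8 TPM (-1.63). Capns2 had 2.61 and 1.09 TPM (-1.23). Irx6, the gene next to them, had the log2 ratio nearest to 0 of the family, at -0.12.

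**Figure D4:**
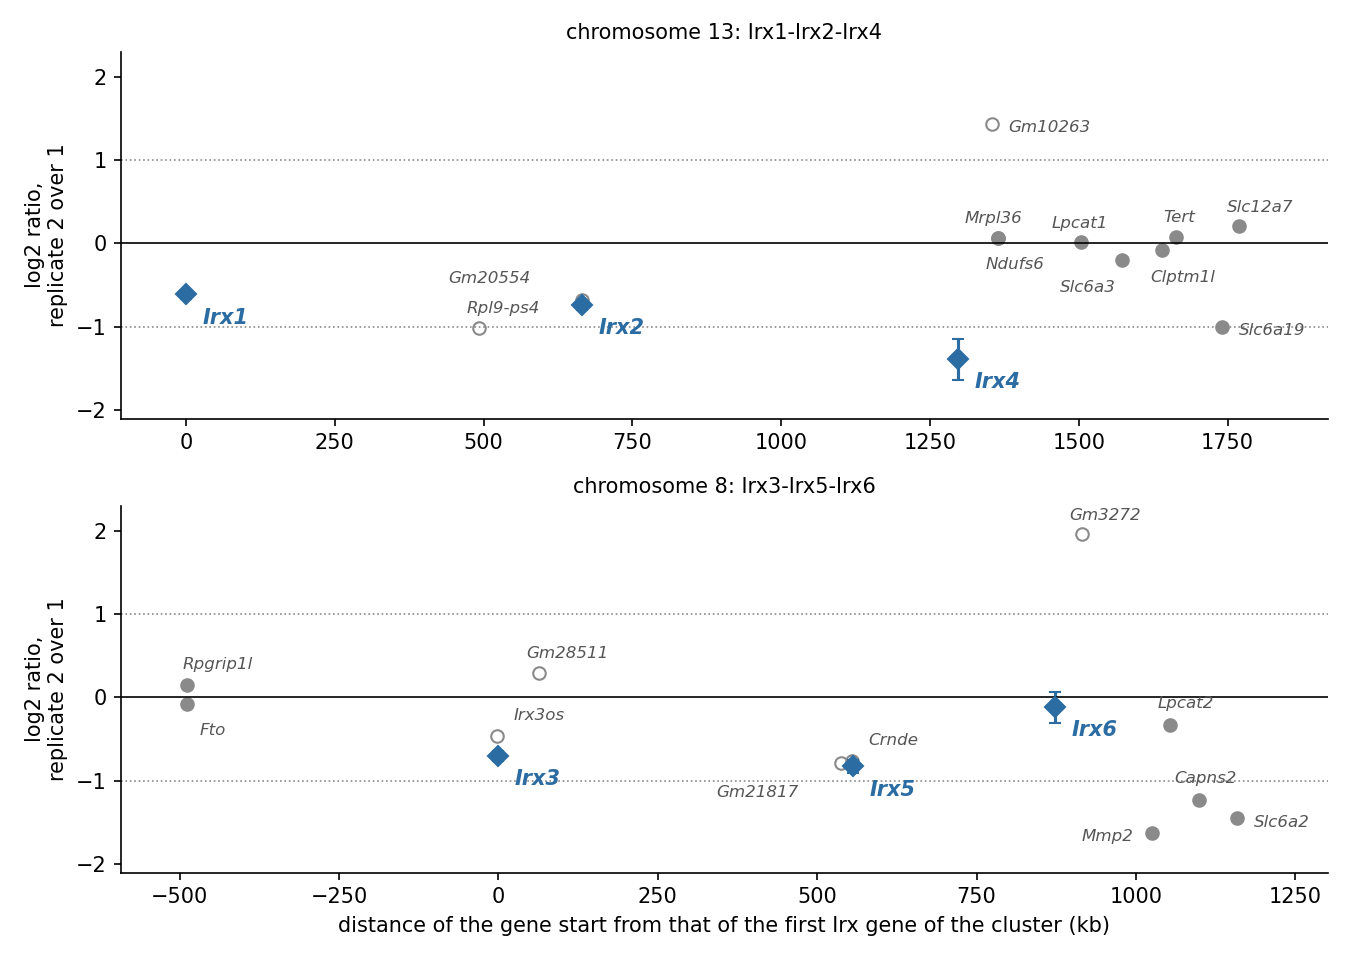
Log2 ratio of replicate 2 over replicate 1 for genes around each cluster whose expected counts averaged 10 or more, by distance of the gene start from that of the cluster's first Irx gene (kb); diamonds are Irx genes with exact 95% intervals of counting error, filled circles other protein-coding genes, open circles other RNAs and pseudogenes, and dotted lines a 2-fold difference. Gm20554 and Crnde lie on top of Irx2 and Irx5. The detected coding genes beyond Irx4 lie near 0, as do Fto and Rpgrip1l, far out on the Irx3 side. The coding gene Slc6a19, also beyond Irx4 but not detected, lies at the lower dotted line.

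The genes differed in how many transcripts carried their signal. Irx1 and Irx5 have 1 transcript each in the annotation used. Irx2 has 5, of which Irx2-201, with 1422 coding nt, took 62.4% and 62.0% of the gene's TPM but 90.3% and 90.1% of its expected counts. The short Irx2-203 took 23.1% and 23.3% of the TPM and the retained-intron transcript Irx2-202 took 14.0% in each replicate. In the mm9 junction table, the 607 nt intron of Irx2-203 had 4 reads (0 and 4 in the 2 fields), against 1107 for the 1257 nt intron of Irx2-201 with the same acceptor, or 0.36% of 1111 reads (exact 95% binomial interval 0.1% to 0.92%). Irx2-201 alone had 39.5 and 23.5 TPM, below Irx1 in each replicate. With Irx2-201 in place of the whole gene, the difference between the cluster sums and that between Irx2 and Irx5 are smaller. These values leave out the reads assigned to the other Irx2 transcripts. The level of Irx2 with the short transcripts taken out of the annotation was not computed, so its place beside Irx1 in that case is not known.

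Irx4 was split between Irx4-202 (58.9% and 67.5% of TPM) and Irx4-201 (41.1% and 32.5%), which differ in the end of the first exon and have the same 1545 coding nt. The junction that separates them went the other way: the 3971 nt first intron of Irx4-201 had 10 reads (6 and 4 in the 2 fields) and no junction matched the 4194 nt first intron of Irx4-202, where 0 of 10 reads allows a share of up to 30%. With so few reads, which form of Irx4 is the major one was not settled. In Irx3 and Irx6 the forms differ by a few bases at a splice site.

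The bases at these splice choices, from the M21 transcripts on mm10, are shown to make clear how little separates the forms. Capitals mark bases that are present in 1 form and absent from the other.
Irx3-201 (chr8:91799448-91799684, minus strand): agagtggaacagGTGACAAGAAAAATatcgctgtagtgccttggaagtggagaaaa
Irx3-202 (chr8:91799448-91799684, minus strand): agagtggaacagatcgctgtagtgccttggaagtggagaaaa
Irx6-201 (chr8:92678788-92679660, plus strand): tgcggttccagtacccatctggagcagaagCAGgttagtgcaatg
Irx6-202 (chr8:92678788-92679660, plus strand): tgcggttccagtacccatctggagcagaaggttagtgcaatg
The Irx3 forms differ at a donor site, where Irx3-201 keeps 14 more bases, and an intron of 181 nt becomes one of 195 nt in Irx3-202. Since 14 is not a multiple of 3, the reading frame after the site differs, and M21 gives 522 codons to Irx3-201 and 507 to Irx3-202. The Irx6 forms differ by 3 bases at an acceptor site, with introns of 828 and 831 nt, and M21 gives 439 and 438 codons.

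Irx3 used almost only the shorter exon. Irx3-202 took 97.7% and 99.2% of the gene's TPM in replicates 1 and 2, and Irx3-201 the remaining 2.33% and 0.83%. In the junction table on mm9, the 195 nt intron had 396 reads (187 and 209 in the 2 fields) and the 181 nt intron had 3, so 99.2% of 399 reads took the first (exact 95% binomial interval 97.8% to 99.8%, counting error only). The 195 nt intron's donor was not annotated in Ensembl release 65, which held the donor of the 181 nt intron. On introns with both sites annotated fell 71.1% of Irx3 junction reads, against 91.1% to 98.4% in the other 5 genes.

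Irx6 used both acceptors. Irx6-201 took 80.1% and 78.5% of the TPM and Irx6-202 19.9% and 21.5%. The 828 nt intron had 35 reads and the 831 nt intron 16, so 68.6% of 51 reads took the acceptor of Irx6-201 (exact 95% binomial interval 54.1% to 80.9%). Field 1 had 14 and 4 of these reads and field 2 had 21 and 12, and the intervals of the fields' shares overlapped.

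**Figure D5:**
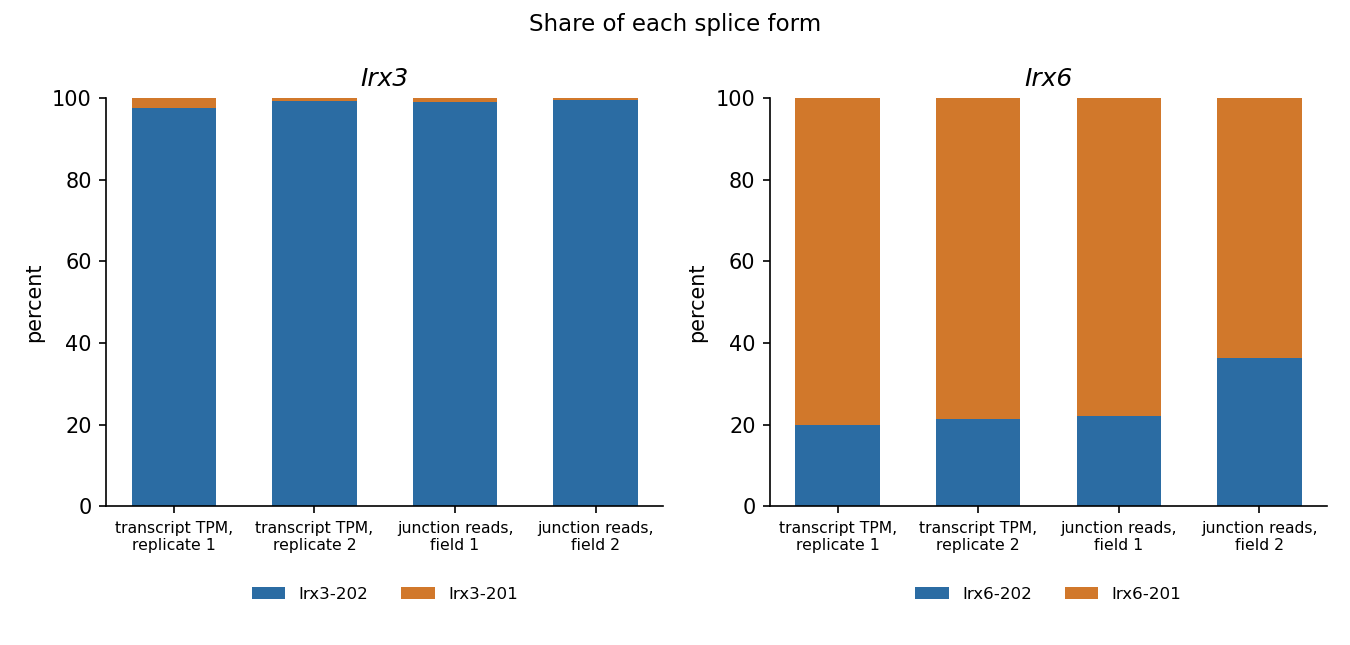
Percent of each splice form of Irx3 and Irx6, as the deposited share of transcript TPM in each replicate (mm10) and as the share of reads across the alternative junction in each field of the mm9 table. Irx3-202 holds at least 97.7% in each bar, and Irx6-202 holds 19.9% to 36.4%.

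Spliced reads also covered other introns of the 6 genes. The 3 annotated Irx1 introns had 715, 1165 and 914 reads, the 2 annotated Irx5 introns 537 and 406, and the 4 introns of Irx2-201 480 to 1208. All Irx4 junctions together had 158 reads and all Irx6 junctions 312. Relative to all junction reads, the fields of this table differed most for Irx4 (log2 of field 2 over field 1 of -1.64) and least for Irx6 (-0.11), with -0.68 to -1.01 for the other 4 genes. In the mm9 RPKM table, Irx4 again differed most between the fields (1.45) and Irx6 least (0.61), but field 2 was the higher for all 6 genes. The sign is opposite in the 2 tables, so no field was read as replicate 1 or 2.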

How the data were processed

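The members and lists were chosen with earlier results of these data known. The mm10 gene tables of the authors (GENCODE M4) give expected counts, TPM and FPKM, used as deposited, as was the percent of a gene's TPM in each transcript. The deposited expected counts are estimates and were rounded to whole numbers for ratios. The deposited TPM count spike-ins among all features, and the deposited FPKM are per effective length. On mm9, the deposited RPKM and the deposited junction read counts stand in 2 fields that no label ties to a replicate. No source used here names the aligner or quantifier. The deposited contigs were not analysed here.

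Of 69691 features, the 26248 named by number and the spike-in and control sequences stayed out of library sizes. Symbols, positions and transcripts came from GENCODE M21 (mm10) by stable identifier. Replicate ratios used TMM scaling from edgeR 4.0.16 (R 4.3.3) with a prior count of 1, and DESeq2 1.42.0 gave other size factors. The ratio computation was checked on simulated counts with set fold changes. Intervals are exact 95% intervals and cover counting error only. The floor of 3 counts for a gene at 0 equals 0.0301 and 0.0223 CPM in replicates 1 and 2. Named are all Irx genes, detected genes around the clusters, and of each related list the 3 highest, the lowest, those at least 2-fold apart and the 2 nearest to Irx1 and to Irx3. A gene that this rule names is not reported here. Other genes given with values, and those of the marker lists, were chosen after their values were seen. Each list member and ratio was computed with Python 3.11.15, pandas 2.3.3, numpy 2.4.6, scipy 1.17.1 and Biopython 1.88. Figures were drawn with matplotlib 3.10.9. Alternatives were other units, scalings, filters and thresholds, and each replicate alone.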

Additional observations from a re-analysis of the deposited data

How the results depend on the processing

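Of 87 values computed under an alternative, 73 moved by less than the spread between replicates (or, for a ratio of replicates, stayed inside its counting interval; for a count, within 1.5 times), 13 moved by more and 1 changed sign. The change of sign was Irx6 over Irx4, which ran from -0.31 without replicate 2 to 0.97 without replicate 1. With n = 2, a level or ratio from either replicate alone always lies within the spread, unless its sign changes. Ratios of FPKM equal those of TPM apart from rounding. The 73 thus include values whose outcome was fixed in advance, and their number does not measure robustness. The cluster log2 ratio stayed below 0 throughout: -0.78 on TMM-scaled CPM, which is not per length, -1.42 on mean mm9 RPKM, -1.24 with the median of 3 genes in place of the sum and -1.15 without Irx4 and Irx6. Irx3 over Irx1 was -0.47 on CPM and -0.76 on mm9 RPKM. Irx5 over Irx2 was -1.32 on CPM, -2.20 on mm9 RPKM and -1.65 on log2(TPM + 1). None of the alternatives left out the short Irx2 transcripts. The levels of all 6 genes rose when spike-ins and mitochondrial genes were left out of the total, Irx2 to 56.7 TPM and Irx6 to 2.41 TPM. Only for Irx6, whose replicates were close, was the rise larger than the spread between replicates. All 30 ratios of replicates under other scalings, a TPM ratio or a prior count of 0.25 were below 0, from -1.41 to -0.07, and Irx4 was the only gene at least 2-fold apart under each. The background share at least 2-fold lower was 3.95% among genes with a mean count of at least 200, and that at least 2-fold higher was 0.29% there and 2.68% with no filter. At 2 TPM or 1 FPKM in both replicates, 5 of 6 Irx genes were detected. No paired analysis was possible because there is 1 group. With 2 pools, the spread is itself poorly known, and the low counts of Irx4 and Irx6 limit their ratios and isoform shares.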

Other observations

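Spliced reads and an assembled gene model extended beyond the annotated start of Irx2. A junction whose donor was not annotated in Ensembl release 65, with an intron of 2134 nt, joined the second exon of Irx2 in 13 reads (3 and 10 in the 2 fields), beside 1107 reads for the annotated intron of 1257 nt. A gene model assembled by the authors on the same strand began 1528 nt before the annotated Irx2 start. It was listed at 0.602 and 1.48 RPKM in the 2 fields.

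An unannotated Irx1 donor 411 nt from the acceptor had 16 reads, beside 914 for the annotated intron of 2927 nt that shares the acceptor. Among 32851 RefSeq promoters of 300 nt (GRCm38.p6), Irx4 held 31 CG dinucleotides, Irx2 25 and Irx3 14, against a median of 7. At least as many as in Irx4 were found in 10.6% of those promoters, as in Irx2 in 18.4% and as in Irx3 in 36.3%. CG reads the same on both strands. Promoters of Irx1, Irx5 and Irx6 were not available here. The promoter of Crnde, beside Irx5, held 22 (at least as many in 23.1% of promoters), and that of Irx3os held 6 (56.4%).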
